A study of Mus musculus with 1279 samples.

Results

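Genes that move iron and copper into, within and out of cells were followed across the fibroblasts and mural cells of the mouse heart. The set held Steap4, Cp, Heph, Scara5, Tfrc, Trf, Hp, Fth1, Ftl1 and Slc40a1, 10 of the 46517 genes in the count table. The 10 were chosen by their function and by their read counts over the labelled clusters and strains, which are the values described here. Their levels and differences are therefore given as a description, with no p-value.

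Each of the 1279 samples was 1 cell in 1 well of a plate, whose whole transcripts were copied and sequenced by the Smart-seq2 method, with no tag for single molecules and none for strand. All mice were male and 10 to 20 weeks old. The labels gave each cell a strain and a cluster number from 1 to 8. C57BL6 cells (581) carried no reporter and had been sorted with antibodies to the receptors PDGFRα or PDGFRβ. PdgfrbGFP (364 cells), Cspg4dsRED (12.7% of all cells) and Acta2GFP (13.4%) mice carried a fluorescent protein under regulatory sequences of Pdgfrb, Cspg4 or Acta2, on a C57BL6 background, and were sorted on it. Endothelial cells with CD31 were gated out in all of them, and for Acta2GFP elastase was added to the dissociation. PdgfrbGFP, Cspg4dsRED and Acta2GFP came from 1 plate each and C57BL6 from 3, so strain, sort and plate cannot be told apart. The labels name no animal, and the strain was taken as the replicate.

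The study places clusters 1 to 5 among fibroblasts, and cluster 1 as likely valve interstitial cells. Clusters 6 to 8 carry no identity in the sources used here and were treated as mural cells, the smooth muscle cells and pericytes that wrap vessels. Marker genes were checked against this. Summed over 5 fibroblast markers, clusters 1 to 5 held 10319 to 15926 CPM over the strains, against 105.3 to 652 in cluster 7. CPM is the gene's part of all counts of a sum of cells, scaled to a total of 1000000. Summed over 4 smooth muscle markers, clusters 6 and 7 held 9946 to 15717 CPM and cluster 8 held 201.05 to 4033. Summed over 4 pericyte markers, cluster 8 held 6942 to 23596 CPM and cluster 7 held 2486 to 8974. Summed over 5 mural markers, clusters 7 and 8 held 5239 to 11764 CPM, but cluster 6 held 781 to 2446, above the 42.5 to 730 of clusters 1 to 5. Cluster 8 held 448 to 2781 CPM of the fibroblast markers. Cluster 6 held 1925 to 11041 CPM of them and, in C57BL6 and Acta2GFP, only 3 cells each. Total counts per cell ran from 46268 to 1302397 with a median of 274504. Of other cell types, the highest sum over a cluster and strain was 626 CPM for cardiomyocyte markers, 446 for erythroid, 273.7 for endothelial, 188.9 for macrophage, 8.83 for Schwann, 0.839 for mesothelial and 0.121 for adipocyte markers.

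Cells take up iron mainly as transferrin (Trf), the iron carrier of plasma, through the transferrin receptor (Tfrc), and in some cells as ferritin through the scavenger receptor Scara5. Iron and copper must be reduced before they cross membranes, a task of metalloreductases such as Steap4. Inside the cell, iron is stored in ferritin, a shell of heavy chains (Fth1, which oxidise iron) and light chains (Ftl1, which help to form the mineral core). Ferroportin (Slc40a1) is the one known exporter of iron, and the copper-containing ferroxidases ceruloplasmin (Cp) and hephaestin (Heph) oxidise the exported iron so that transferrin can bind it. Haptoglobin (Hp) binds free haemoglobin. Much of this control acts on mRNA. When iron is scarce, regulatory proteins bind a hairpin, the iron-responsive element. In a 5′ untranslated region it blocks translation, and in the 3′ untranslated region of Tfrc it protects the mRNA.

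The hairpins are shown because counts of mRNA can follow the 3′ kind of control but not the 5′ kind. A script searched the GENCODE M21 transcripts (GRCm38) on the transcript strand for C, any 5 bases, CAGTGN and then 5 bases that pair with the former 5, with G-T pairs allowed, 17 letters in all. At least 1 coding transcript had a match in 294 of 21901 protein-coding genes (1.34%), and the principal transcript had one in 4 of the 10 genes. Capitals mark the 6 bases of the loop, and 5 bases are given on either side of the motif.
Fth1, 5′ UTR, chr19:9982733-9982759, + strand: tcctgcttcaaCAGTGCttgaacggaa
Ftl1, 5′ UTR, chr7:45459780-45459806, - strand: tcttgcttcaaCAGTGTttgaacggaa
Slc40a1, 5′ UTR, chr1:45925466-45925492, - strand: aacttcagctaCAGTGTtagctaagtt
Tfrc, 3′ UTR, chr16:32631220-32631246, + strand: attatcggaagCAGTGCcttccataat
Tfrc, 3′ UTR, chr16:32631599-32631625, + strand: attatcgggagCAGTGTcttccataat
Tfrc, 3′ UTR, chr16:32631664-32631690, + strand: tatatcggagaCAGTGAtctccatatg
Tfrc, 3′ UTR, chr16:32631711-32631737, + strand: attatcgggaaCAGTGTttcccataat

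The motif began at base 93 of the 929-base principal transcript of Fth1, at base 84 of 968 in Ftl1 and at base 96 of 3370 in Slc40a1, near its start in each. The 4 motifs of Tfrc lay at bases 3321, 3700, 3765 and 3812 of 4890. A match is a run of letters and no measurement of binding, and the letters were not found in the principal transcripts of Steap4, Cp, Heph, Scara5, Trf and Hp.

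Levels were taken from counts summed over the cells of a cluster and strain and divided by the total without spike-ins, in CPM. Means are over strains with 3 cells or more. Ranges over strains are used to say whether neighbouring clusters differ beyond their spread.

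**Figure D1:**
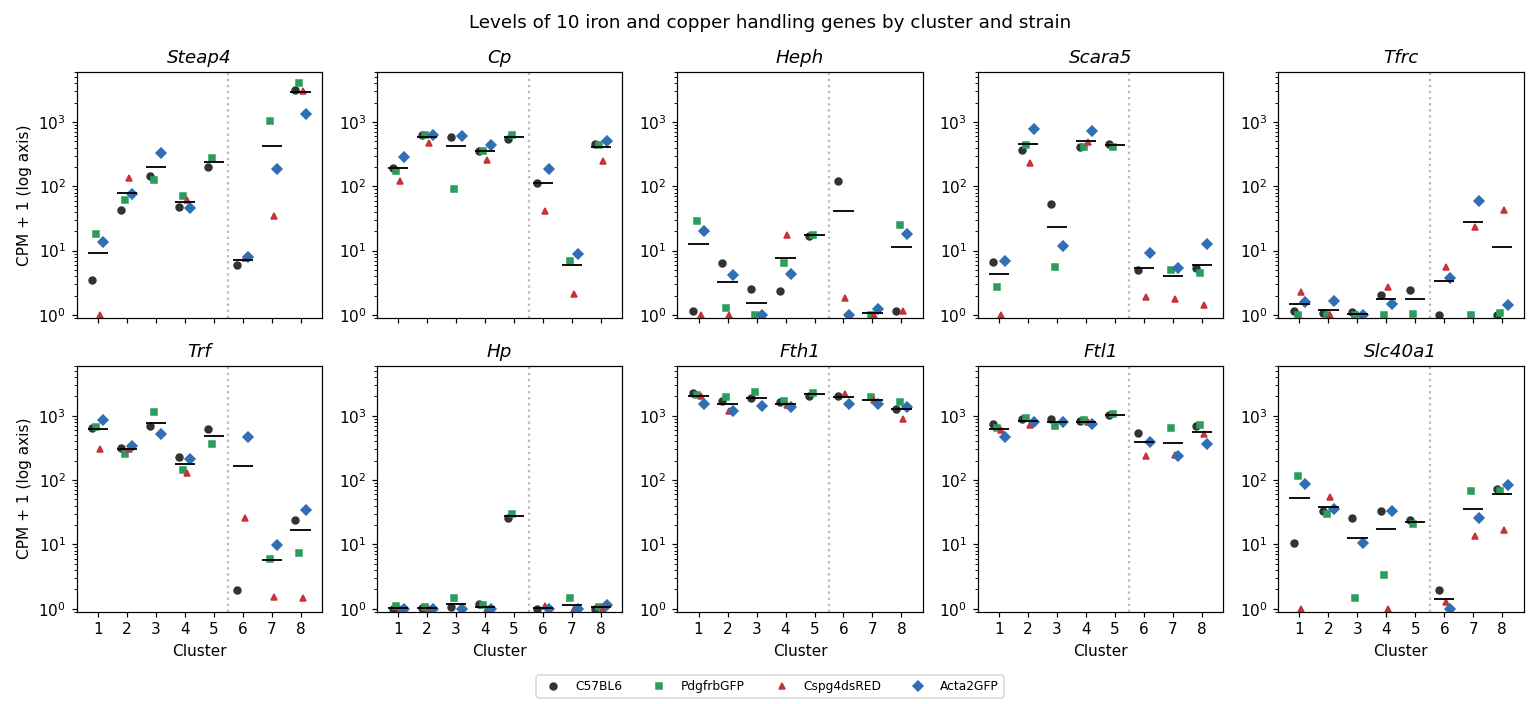
Level of each of the 10 genes (CPM + 1, log axis) in clusters 1 to 8, with 1 point per strain for sums of 3 cells or more and a black line at the mean over strains. The dotted line parts fibroblast clusters 1 to 5 from mural clusters 6 to 8. Steap4 peaked in cluster 8, Cp was lowest in cluster 7, Scara5 was high in clusters 2, 4 and 5, Trf was high in clusters 1 to 5, and Hp was above 1 CPM in cluster 5 alone.

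Steap4 (ENSMUSG00000012428, chromosome 5, 7960457 to 7982213, + strand) encodes a metalloreductase of iron and copper. Its level was highest in cluster 8 of all strains, at 1338 CPM in Acta2GFP, 2971 in Cspg4dsRED, 3151 in C57BL6 and 4059 in PdgfrbGFP, a mean of 2879.8 ± 1133 CPM (SD, n = 4 strains). No sum of another cluster with 3 cells or more reached the lowest of these. That lowest sum, of Acta2GFP, also held the most smooth muscle markers in cluster 8, at 4033 CPM, whose part in it was not tested. Cluster 7 came next at 417 ± 540 CPM (SD, n = 3 strains), with 1034 CPM in the 9 cells of PdgfrbGFP, 182.99 in Acta2GFP and 33.6 in Cspg4dsRED. The same 9 cells also had the highest pericyte marker sum of cluster 7, at 8974 CPM. The part of that in the Steap4 value was not tested.

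Among fibroblasts, Steap4 was graded. Cluster 5 held 200.3 CPM in C57BL6 and 275.1 in PdgfrbGFP, cluster 3 held 124.9 to 326, cluster 2 held 41.03 to 133.1 and cluster 4 held 45.3 to 69.2. Ranges of clusters 5, 3 and 2 overlapped with their neighbours in that order, and so did those of 2 and 4. The lower end was apart, since cluster 1 held 0 to 16.8 CPM and cluster 6 held 4.90 to 7.02 CPM. In cluster 1 of Cspg4dsRED no count was found in 3 cells, which allows a level of up to 3.70 CPM.

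The share of cells with Steap4 was also highest in cluster 8. After thinning each cell to 50000 counts, which left out 2 cells, 73.3% to 96.97% of cluster 8 cells had 5 counts or more over the 4 strains. In cluster 7 the share was 44.4% in PdgfrbGFP, 24.2% in Acta2GFP and 1.35% in Cspg4dsRED. It was 26.7% and 30.4% in cluster 5, 14.3% to 21.4% in cluster 3 and 0% to 3.85% in cluster 1. Clusters 2 and 4 held 8.16% to 18.4% and 7.55% to 17.5% in 3 strains but 37.5% (3 of 8 cells) and 30.8% (4 of 13) in Cspg4dsRED, which had 1 cell in cluster 5. Pooled over strains, cluster 7 (11.1%) lay below cluster 3 (20.5%), but in both strains with 3 cells or more of each it lay above. At least 1 count, pooled over strains, was found in 95.9% of thinned cluster 8 cells and in 15.4% to 50.3% in the other clusters. Without thinning these shares were 97.96% and 62.5% to 72.3%, so most cells of every cluster had some count of Steap4.

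Those small counts were not evenly spread over the plates. In wells of clusters 1, 2, 4 and 6, where Steap4 was low, its count was set against the summed Steap4 counts of the cluster 8 wells in the same row or column. The Spearman rho was 0.62 on the PdgfrbGFP plate, 0.42 over 57 wells of the Cspg4dsRED plate, 0.35 on the Acta2GFP plate and 0.23 on the C57BL6 plate that held cluster 8. On the PdgfrbGFP plate the median was 5 counts in the 61 wells above the median of that sum and 2 in the other 63. The Acta2GFP plate had 53 and 54 such wells, with medians of 3 and 1, and the C57BL6 plate 76 and 77, with medians of 1 and 1. Scara5 and Trf in mural wells were related likewise to the fibroblast wells of their row or column, with rho of 0.02 to 0.71 and 0.22 to 0.59. The wells share a plate, and these values are a description. The part of the row or column in the lowest levels was not tested, and levels under about 20 CPM of these 3 genes are given with that limit.

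**Figure D2:**
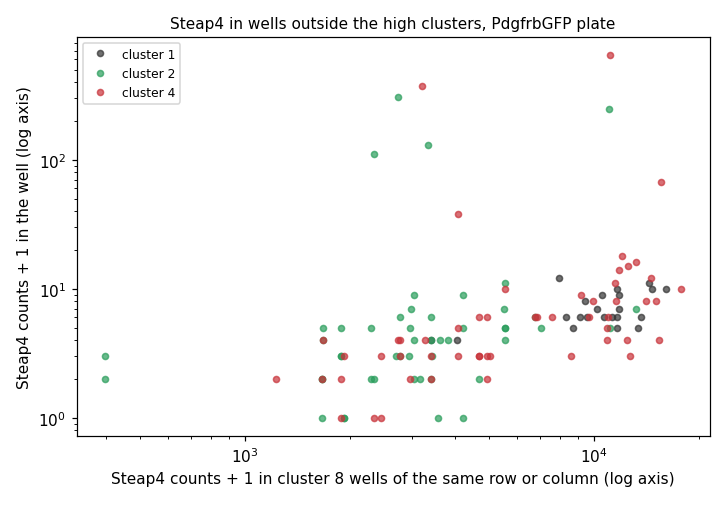
Steap4 counts + 1 in each well of clusters 1, 2 and 4 on the PdgfrbGFP plate (vertical, log axis) against summed Steap4 counts + 1 in the cluster 8 wells of the same row or column (horizontal, log axis). Most wells lie between 1 and 20 counts and climb with the horizontal axis, and a few wells of clusters 2 and 4 lie far above the rest.

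Cp (ENSMUSG00000003617, chromosome 3, 19957054 to 20009145, + strand), the ferroxidase ceruloplasmin, was present on both sides of the divide. Mean levels were 585 ± 72.7 CPM in cluster 5 (SD, n = 2 strains), 584 ± 75.02 in cluster 2 (n = 4), 427 ± 292.7 in cluster 3 (n = 3), 410.3 ± 114.3 in cluster 8 (n = 4) and 350.03 ± 74.1 in cluster 4 (n = 4). The ranges of these 5 clusters overlapped with their neighbours in that order. The 7 PdgfrbGFP cells of cluster 3 stood low at 89.7 CPM, where C57BL6 held 583 and Acta2GFP 609. Cluster 1 held 119.7 to 288.1 CPM and cluster 6 held 40.3 to 185.2. Cluster 7 was apart from all others at 5.89 CPM in PdgfrbGFP, 1.12 in Cspg4dsRED and 7.86 in Acta2GFP. So the pericyte-marked cluster 8 and the smooth muscle-marked cluster 7 lay at opposite ends of the Cp range of mural cells.

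In thinned cells, 5 counts or more of Cp were found, over the strains, in at least 77.6% of cluster 2, in 64.8% and 68.5% of cluster 5, in 31.4% to 66.7% of cluster 8 and in 0% to 3.03% of cluster 7. The span of Cp overlaps Hps3 on the opposite strand, which had 8817 counts in all against 164410 for Cp, and reads from either strand cannot be told apart in this protocol.

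Heph (ENSMUSG00000031209, chromosome X, 96455359 to 96574485, + strand), the membrane-bound ferroxidase hephaestin, was a rare transcript. Counts were found in 63 cells (4.93%) and 24 cells with 10 counts or more held 97.5% of them. These 24 cells lay in 7 of 8 clusters, 8 of them in cluster 5, and in all 4 strains. The highest level, 119.5 CPM in cluster 6 of C57BL6, came from 1 of 3 cells, so sums of Heph follow single cells and no order of clusters was read from them.

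Scara5 (ENSMUSG00000022032, chromosome 14, 65666403 to 65764826, + strand), which takes up ferritin, was high in some fibroblast clusters and low in others. Clusters 4, 2 and 5 held 502 ± 150.4, 449 ± 230.8 and 435 ± 32.9 CPM (SD, n = 4, 4 and 2 strains), with ranges that overlapped. The lowest of their sums, cluster 2 of Cspg4dsRED, stood at 232.7 CPM. Cluster 3 held 52.02 CPM in C57BL6, 10.6 in Acta2GFP and 4.63 in PdgfrbGFP, a range below that of the former. Cluster 1 held 0 to 5.85 CPM and clusters 6 to 8 held 0.450 to 11.6. Cluster 3, with the highest mean of Trf among all clusters, thus lay below clusters 2, 4 and 5 in Scara5 in the 3 strains with 3 cells or more.

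In thinned cells, 5 counts or more of Scara5 were found, over the strains, in 34.3% to 82.5% of clusters 2, 4 and 5, in 0% to 6.67% of cluster 3, in 0% to 5.26% of cluster 1 and in no cell of clusters 6 to 8. In C57BL6, which had the most cells, 47.2% to 53.3% of the cells of clusters 2, 4 and 5 had that many.

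Trf (ENSMUSG00000032554, chromosome 9, 103204001 to 103230444, - strand), transferrin, was a fibroblast transcript. Cluster 3 held 782 ± 308 CPM (SD, n = 3 strains), cluster 1 held 615 ± 232.7 (n = 4), cluster 5 held 488 ± 177.4 (n = 2), cluster 2 held 303 ± 33.5 (n = 4) and cluster 4 held 176.8 ± 50.6 (n = 4). The range of cluster 5 (362 to 613) lay above that of cluster 2 (256.3 to 337), and that of cluster 2 lay above that of cluster 4 (126.7 to 227.6). By plate of C57BL6, cluster 4 held 157.5 and 329.9 CPM and cluster 2 held 250.7 and 406.1, so these ranges are not apart across plates. In thinned C57BL6 cells, 5 counts or more of Trf were found in 50.5% of cluster 5 and 33.9% of cluster 2. In PdgfrbGFP the shares were 20.0% and 30.6%, the other way. Clusters 7 and 8 held 0.450 to 33.9 CPM. In cluster 6 Trf held 469 CPM in Acta2GFP, 24.5 in Cspg4dsRED and 0.980 in C57BL6. The highest and lowest of these are sums of 3 cells, so no level was read for cluster 6.

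The annotated gene Gm20425 spans Trf on the same strand, and it had 135112 counts against 124740 for Trf. Whether the counting assigned a read to both was not stated, and the Trf level is uncertain to that extent.

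Tfrc (ENSMUSG00000022797, chromosome 16, 32608920 to 32632794, + strand), the receptor for transferrin, was low in fibroblasts. In clusters 1 to 5 no sum exceeded 1.68 CPM. Its higher sums were in mural cells of 2 strains, at 21.99 CPM in cluster 7 and 41.1 in cluster 8 of Cspg4dsRED and at 57.6 in cluster 7 of Acta2GFP. In PdgfrbGFP mural cells it held 0.0486 CPM, and in C57BL6 no count was found in 37 mural cells, which allows up to 0.347 CPM. A count was found in 56 cells, and 19 cells with 10 counts or more held 95.6% of all counts. Of these 19, 10 lay in cluster 7, 9 came from Cspg4dsRED, 7 from Acta2GFP, 3 from C57BL6 and none from PdgfrbGFP.

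Macrophage and erythroid markers were read in the same 19 cells, since both cell types use Tfrc. Erythroid markers summed to 6.97 CPM in them and to 13.01 CPM in the other 1078 cells of the same clusters, and macrophage markers to 29.95 and 30.9 CPM. The erythroid sum of cluster 8 of Cspg4dsRED was 446 CPM, against 0.597 to 5.56 CPM in the other strains. Cardiomyocyte markers summed to 122.6 CPM in the 19 cells and to 69.5 CPM in the others. The share of cells with 10 marker counts or more was 10.5% against 5.10% for erythroid, 5.26% against 20.04% for macrophage and 36.8% against 16.98% for cardiomyocyte markers. Their part in the Tfrc counts was not tested.

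Hp (ENSMUSG00000031722, chromosome 8, 109575128 to 109579172, - strand), haptoglobin, came almost wholly from 9 cells. Each had 42 to 546 counts, and together they held 98.5% of the 2055 counts in the table. The tenth highest cell had 2 counts. All 9 lay in cluster 5, where C57BL6 held 25.1 CPM and PdgfrbGFP 28.4, with 6 and 3 cells. The C57BL6 sum itself differed between plates, at 2.96 CPM in 87 cells of one and 53.001 in 97 cells of the other. No other sum with 3 cells or more exceeded 0.491 CPM. In these 9 cells no count of 5 erythroid or 4 adipocyte markers was found, and the macrophage sum was 34.5 CPM against 35.5 in the other cells of the cluster. The share of cells with 10 macrophage marker counts or more was 44.4% (4 of 9) against 24.4%, and its part in the Hp counts was not tested. Cspg4dsRED and Acta2GFP had 1 and 2 cells in cluster 5, so the strains could not be compared for Hp.

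Fth1 (ENSMUSG00000024661, chromosome 19, 9980598 to 9985098, + strand), the ferritin heavy chain, was found in all 1279 cells. Mean levels ran from 1286 ± 307 CPM in cluster 8 (SD, n = 4 strains) to 2153 ± 163.2 in cluster 5 (n = 2), and every cluster overlapped with its neighbour in the order of the means. Ftl1 (ENSMUSG00000050708, chromosome 7, 45457944 to 45459884, - strand), the light chain, was found in 1277 cells and varied more. Cluster 5 held 1022 and 1062 CPM, above the 716 to 917 of cluster 2. Clusters 3 and 4 held 680 to 900 CPM, cluster 1 held 463 to 753 and cluster 8 held 358 to 714. Cluster 6 held 238.1 to 532 CPM. Cluster 7 held 652 CPM in PdgfrbGFP but 241.2 in Cspg4dsRED and 235.3 in Acta2GFP.

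The 2 chains therefore stood in different proportions. Counts of Fth1 per count of Ftl1 were 1.52 to 2.14 in clusters 2, 4 and 5 in every strain with 3 cells or more. In cluster 1 the ratio was 3.34 in Acta2GFP and in Cspg4dsRED, 3.32 in PdgfrbGFP and 3.02 in C57BL6, a mean of 3.26 ± 0.16 (SD, n = 4), which did not overlap with those clusters. In cluster 3 it was 1.77 in Acta2GFP, 2.10 in C57BL6 and 3.38 in the 7 cells of PdgfrbGFP. Cluster 7 reached 7.26 in Cspg4dsRED and 6.37 in Acta2GFP but 3.02 in PdgfrbGFP. Cluster 6 reached 9.25 in Cspg4dsRED and 3.87 and 3.91 in the sums of 3 cells. Cluster 8 held 1.70 to 2.27 in 3 strains and 3.79 in Acta2GFP, the strain with the most smooth muscle markers there. Within each of the 3 strains that had both, the ratio was higher in cluster 7 than in cluster 8.

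Ferritin counts did not grow in proportion to depth. Over clusters 2 to 5 the median Fth1 count went from 475.5 in cells with 150000 to 250000 counts to 788 in 95 cells with 500000 or more, while the median CPM went down from 2335 to 1260.4. For Ftl1 the median count went from 226.5 to 411 and the median CPM from 1123 to 661. In cluster 7 the median CPM of Fth1 went from 1964 to 1044 and that of Ftl1 from 296.9 to 141.8 between the same classes, the upper of 9 cells. In cluster 8 the median CPM of Ftl1 went from 720 to 338 and that of Fth1 from 1231 to 1097, the upper class of 6 cells. No cell exceeded 1122 counts of Fth1, or 1.21 per base of its principal transcript. CPM of the ferritins thus moved with the depth of the cells between these classes. Cells under 150000 counts are left out of these values. In the 77 such cells of cluster 8 the median CPM was 1669.6 for Fth1, above the next class. For Ftl1 it was 615.2 there and 216.4 in cluster 7, both below the next class. The ratios were repeated in cells with 200000 to 400000 counts, a choice made after seeing the data. In these cells the ratio was 3.09 to 3.76 in cluster 1 (3 strains), 1.70 to 2.15 in clusters 2, 4 and 5, 2.99 to 6.94 in cluster 7 and 1.56 to 4.04 in cluster 8.

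Ferritin has processed copies in the genome, and 4 ferritin pseudogenes held 44 to 944 counts each, against 668850 for Fth1 and 296924 for Ftl1. Whether reads were assigned to the wrong copy was not tested. Within Ftl1, on its strand, lies the annotated small RNA Gm22133, which had 116766 counts. Whether a read there was assigned to both genes was not stated.

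**Figure D3:**
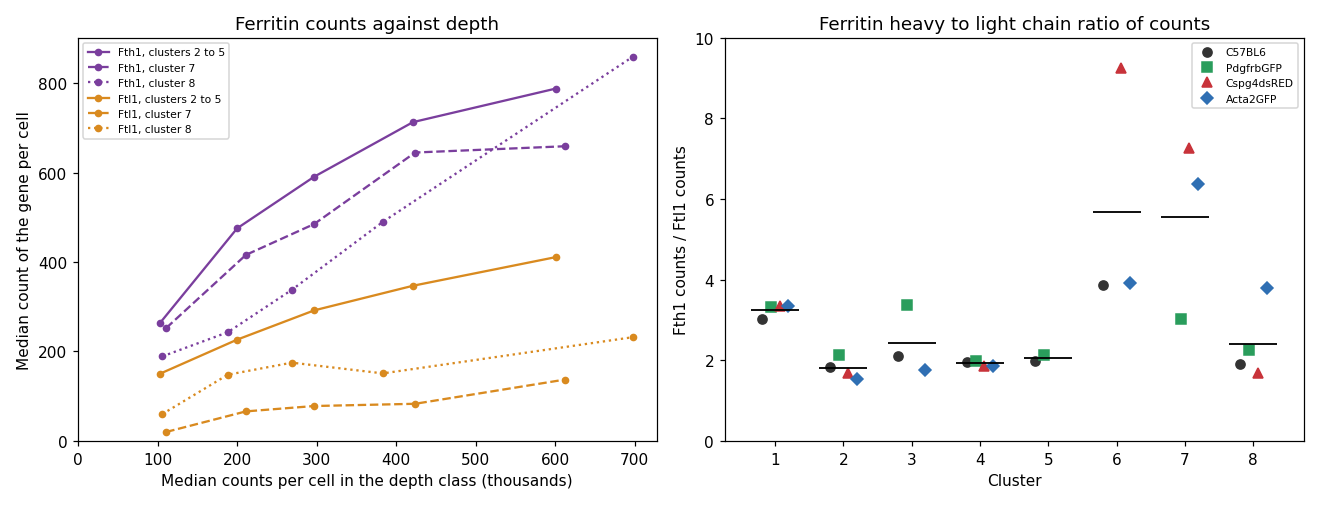
Left, median count of Fth1 and Ftl1 per cell against median counts per cell, in 5 classes of depth, for clusters 2 to 5, 7 and 8. Right, counts of Fth1 per count of Ftl1 by cluster, with 1 point per strain and a black line at the mean. The curves of both chains in clusters 2 to 5, of Fth1 in cluster 7 and of Ftl1 in cluster 8 rise less than in proportion to depth, that of Fth1 in cluster 8 climbs more evenly, and the ratio was 3.02 to 3.34 in cluster 1 and up to 9.25 in cluster 6.

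Slc40a1 (ENSMUSG00000025993, chromosome 1, 45908068 to 45926523, - strand), the exporter ferroportin, was scattered over cells. Counts were found in 240 cells (18.8%), and 84 cells with 10 counts or more held 98.1% of them. Cluster 8 held 82.3 CPM in Acta2GFP, 70.5 in C57BL6, 67.6 in PdgfrbGFP and 15.6 in Cspg4dsRED. Cluster 2 held 28.3 to 52.9 CPM, and cluster 1 ranged from 0 to 112.8. Cluster 6 held 0 CPM in Acta2GFP, which allows up to 1.62 CPM, 0.278 in Cspg4dsRED and 0.980 in C57BL6, and none of its 39 cells had 10 counts. Neighbours in the order of the means overlapped. Macrophages are rich in ferroportin, and the sum of 8 macrophage markers was 24.3 CPM in the 84 cells and 30.4 CPM in the other 1156 cells of the same clusters, with 10 counts or more in 16.7% and 19.6% of the cells.

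To set genes beside each other, CPM was divided by the length of the principal transcript in kilobases. On this scale of levels, cluster 8 held 1384 CPM per kb of Fth1, 913 of Steap4, 586 of Ftl1, 101.8 of Cp and 17.5 of Slc40a1, as means over 4 strains. In cluster 3 Trf held 304, Cp 106.1 and Steap4 62.6 CPM per kb (means over 3 strains). Steap4 in cluster 8 was the one mean level over a cluster at which a gene other than Fth1 exceeded Ftl1 on this scale.

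Next, the 4 comparisons that the clusters offer were read within each strain, as log2 of (CPM + 1) on one side over (CPM + 1) on the other. A gene was counted as apart when this was 1 or more, a 2-fold difference, in the same direction in every strain. Because the clusters were made by the authors from these counts and the 10 genes were chosen with the results known, the counts below are set beside the share of all tested genes that met the same rule, and nothing is read from them.

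Fibroblasts (clusters 1 to 5) were compared with mural cells (clusters 6 to 8) in 4 strains. Scara5 was 5.96 to 7.45 higher in fibroblasts on the log2 scale, at 307 to 504 CPM against 0.763 to 7.12. Trf was 2.93 to 5.57 higher, at 198.8 to 454 CPM against 6.12 to 58.5. The 2.93 and the 58.5 CPM are of Acta2GFP, where 1 cell of cluster 6 held 861 counts of Trf. In cells with 200000 to 400000 counts, a choice made after seeing the data, Trf was 4.04 to 6.09 higher, with 5.39 in Acta2GFP. Steap4 was lower in fibroblasts, at -4.73 to -2.09 on the log2 scale, at 83.2 to 141.02 CPM against 544 to 3759. The spread of Steap4 over mural cells followed the strains. PdgfrbGFP and C57BL6 mural cells, mostly of cluster 8, held 3759 and 2693 CPM, and Cspg4dsRED and Acta2GFP, mostly of clusters 6 and 7, held 579 and 544.

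So 2 of the 10 genes were 2-fold or more higher in every strain, beside 5.06% of all 15117 tested genes, and 1 was lower, beside 2.75%. The fitted log2 fold changes of an edgeR model over all genes were 6.59 (SE 0.66) for Scara5, 3.97 (SE 0.71) for Trf and -4.08 (SE 0.69) for Steap4, given as sizes with no call, since the genes were chosen on these values. Trf was fitted at 4.89 without Acta2GFP and at 4.73 without clusters 1 and 6, and Steap4 at -2.90 with scaling to spike-ins. Of the 10 genes, 9 passed the filter on low counts and Hp did not.

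Cp was higher in fibroblasts of all 4 strains, by 0.35 in C57BL6, 0.31 in PdgfrbGFP, 1.39 in Acta2GFP and 2.74 in Cspg4dsRED (fitted 0.83, SE 0.51). The 2 strains with large differences were those rich in clusters 6 and 7. Ftl1 was higher by 0.38 to 1.33 in all 4 (fitted 0.72, SE 0.37). Fth1 differed by -0.31 to 0.40, with 2 strains on either side of 0, and Slc40a1 by -1.31 to 1.04. The 2 sides did not overlap for Scara5, Trf, Steap4 and Cp, and they overlapped for the other 6 genes. The share of all tested genes whose sides do not overlap was not taken, so nothing is read from this count. The median of all tested genes was 0.14. Mural cells held fewer counts per spike-in count than fibroblasts in every strain (22.1 to 90.1 against 52.1 to 119.5). Scaled to spike-ins, the median of all tested genes was 0.76, and 4 of the 10 genes were 2-fold or more higher in fibroblasts of every strain, beside 10.1% of all tested genes, and 1 lower, beside 1.57%. The added genes were Cp, then 1.05 to 3.43 higher, and Ftl1, 1.18 to 2.03 higher. The part of the total RNA per cell in these values was not tested.

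**Figure D4:**
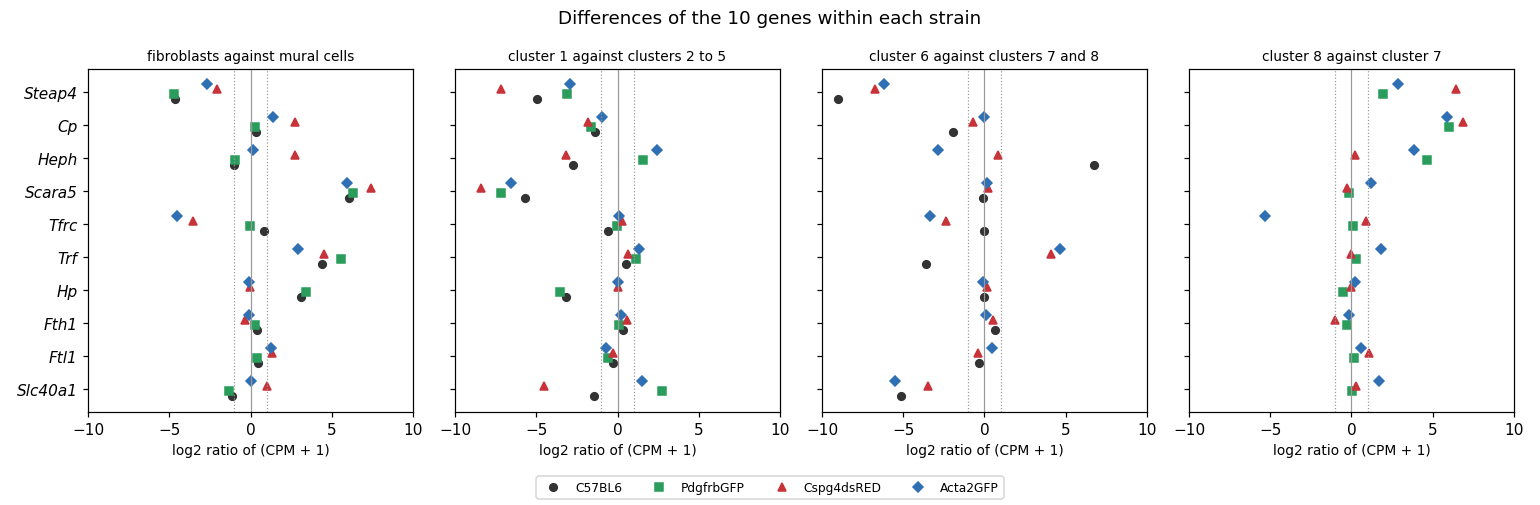
Difference of each of the 10 genes within strains, as log2 ratio of (CPM + 1), in 4 comparisons named in the panel titles, with 1 point per strain and dotted lines at 2-fold. In fibroblasts against mural cells all points of Scara5 and Trf lie right of the dotted line and all points of Steap4 left of it, and in cluster 8 against cluster 7 all points of Steap4 and Cp lie right of it.

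Cluster 1 was compared with the other fibroblasts, clusters 2 to 5. Steap4 was lower, at -7.21 to -2.92 on the log2 scale and at 0 to 16.8 CPM against 102.97 to 156.6. Scara5 was lower too, at -8.38 to -5.73 and at 0 to 5.85 CPM against 333 to 644. The median of all tested genes was -0.44. These 2 genes were 2-fold or more lower in every strain, beside 4.39% of 13201 tested genes, and none was higher, beside 1.24%. Cp lay at -1.82 to -0.94, and at 119.7 to 288.1 CPM against 424 to 555 (fitted -1.38, SE 0.32). Trf was 0.53 to 1.33 higher, at 299 to 859 CPM against 190.5 to 442 (fitted 0.98, SE 0.38). Fth1 was 0.08 to 0.60 higher and Ftl1 lay at -0.73 to -0.29, which is the shift in their ratio given above. The 2 sides did not overlap for Steap4, Scara5 and Cp, and they overlapped for the other 7 genes. Cp did not meet the 2-fold rule. Here too the share of all tested genes without overlap was not taken, and nothing is read from the count. Scaled to spike-ins the same 2 genes were 2-fold or more lower, beside 4.21%, and none was higher, beside 1.18%. In cells with 200000 to 400000 counts, Steap4 was at -5.18 in C57BL6, -3.04 in PdgfrbGFP and -0.83 in Acta2GFP, the last under 2-fold with 7 cells of cluster 1. In the same cells Scara5 was at -6.60 to -6.28, Cp at -2.05 to -1.65 and Slc40a1 at -3.53 to -1.57, so 3 of the 10 genes were then 2-fold or more lower in all 3 strains that had such cells, beside 10.2% of all tested genes. By CPM of all cells, Slc40a1 was at 2.76 in PdgfrbGFP and 1.52 in Acta2GFP, where it was -1.57 and -3.42 in the cells of this depth. Tfrc and Hp did not pass the filter. The Cspg4dsRED sum of cluster 1 held 3 cells with no count of Steap4 or Scara5, a limit of 3.70 CPM, and the lowest log2 values of both genes are from that sum and depend on the 1 CPM added.

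Among mural cells, cluster 6 was compared with clusters 7 and 8 in 3 strains. Steap4 held 4.90, 6.66 and 7.02 CPM in cluster 6 of C57BL6, Cspg4dsRED and Acta2GFP, against 3053, 830 and 598 CPM, which is -9.02 to -6.22 on the log2 scale. Slc40a1 lay at -5.54 to -3.49, and at 0 to 0.980 CPM against 13.4 to 68.4. Cluster 6 held 1 count of it in C57BL6, 3 in Cspg4dsRED and 0 in Acta2GFP, so these values depend on the 1 CPM added, and with 0.1 CPM added they were -8.83 to -5.16. These 2 genes were lower in every strain, beside 10.0% of 12117 tested genes, and none was higher, beside 1.37%. The median of all tested genes was itself -1.09, so values of cluster 6 are to be read against that. Steap4 was fitted at -7.78 with an SE of 0.85. Fth1 was 0.07 to 0.66 higher in cluster 6, and Cp lay at -1.97 to -0.03, or at -1.50 to 0.95 when scaled to spike-ins. Scaled to spike-ins, the median of all tested genes was -0.47 and Fth1 was 1.06 to 1.43 higher, so 1 gene was 2-fold or more higher in every strain, beside 4.81%, and the same 2 were lower, beside 5.15%. Ftl1 was then 0.13 to 1.46 higher, where by CPM it differed by -0.41 to 0.47. In cells with 200000 to 400000 counts, of which Cspg4dsRED alone had 3 or more on both sides, Steap4 was at -8.13, Tfrc at -2.34 and Slc40a1 at -1.86, and Heph was 1.40 and Trf 4.47 higher. In that 1 strain 2 of the 10 genes were thus 2-fold or more higher, beside 20.0% of all tested genes, and 3 lower, beside 27.8%. Heph is not among those tested genes, and its 9 counts in cluster 6 of Cspg4dsRED lay in 1 cell. Heph and Hp did not pass the filter.

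Cluster 8 was compared with cluster 7 in 3 strains. Cp was higher by 5.99 in PdgfrbGFP, 6.87 in Cspg4dsRED and 5.86 in Acta2GFP on the log2 scale, the narrowest spread among the members called 2-fold apart (fitted 6.28, SE 0.99). Cluster 7 held only 1.12 to 7.86 CPM of Cp, so these values and their spread depend on the 1 CPM added. With 0.1 CPM added they were 6.19, 7.66 and 6.01. Steap4 was higher by 1.97, 6.42 and 2.86 in the same order, and the median of all tested genes was 0.34 (Steap4 fitted 2.51, SE 0.94, with 1.79 by DESeq2 and 4.33 without PdgfrbGFP as the lowest and highest over the alternatives). These 2 genes were 2-fold or more higher in every strain, beside 6.83% of 11867 tested genes, and none was lower, beside 3.56%. Ftl1 was 0.13 to 1.10 higher and Fth1 lay at -0.998 to -0.14. Scaled to spike-ins, Ftl1 was -0.33 in PdgfrbGFP and 0.43 and 0.64 in the others. Tfrc was at -5.34 in Acta2GFP and was 0.87 higher in Cspg4dsRED. Scaled to spike-ins, the same 2 genes were 2-fold or more higher, beside 5.01%, and none was lower, beside 5.18%. In cells with 200000 to 400000 counts Steap4 was 1.67 to 9.05 higher and Cp 4.68 to 6.73 higher. Heph and Hp did not pass the filter.

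The C57BL6 cells of clusters 2 to 5 came from 2 larger plates, which shows how far plates of one strain differed. On the log2 scale, the second over the first, Fth1 fell by up to 0.15 in the 4 clusters, Ftl1 differed by 0.04 to 0.29 and Cp by -0.54 to 0.29. Scara5 differed by 0.09 to 1.04 and Trf by -0.16 to 1.06. Steap4 in cluster 2 held 61.2 CPM on the first plate and 12.9 on the second, and Slc40a1 in cluster 3 held 4.65 and 73.96.

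Across single cells, most pairs of genes had rho near 0 within a population. Among Steap4, Cp, Scara5, Trf, Fth1 and Ftl1, Spearman rho of CPM over 525 C57BL6 cells of clusters 2 to 5 was -0.11 to 0.14 for the 14 pairs other than the ferritins, and 0.34 for Fth1 with Ftl1. In 94 Acta2GFP cells of these clusters the 14 pairs gave -0.17 to 0.32 and the ferritins 0.66. In 75 Cspg4dsRED cells of cluster 7 the 14 pairs gave -0.11 to 0.18 and the ferritins -0.093. These are descriptions over cells that share a plate and its depths, and counts of the ferritins share the dependence on depth shown above.

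The genes whose levels were most like each member were taken over 27 sums of a cluster and strain, as Pearson r of log2(CPM + 1) among 10318 genes with a mean of 10 CPM or more. Steap4 was most like Ndufa4l2 (0.82), with Chn1os3 (0.80) also among its nearest, and Cp was most like Oaf (0.94), H2-D1 (0.90) and Slc43a3 (0.90). Scara5 was most like Svep1 (0.97), Gm26889 (0.97) and Hmcn2 (0.96). Trf was most like Gm20425 (0.93), which overlaps it, Smtnl2 (0.91) and Ctsh (0.90), a lysosomal protease. Ftl1 was most like Gm22133 (0.98), which lies within it, Tmem50a (0.87) and Tmsb10 (0.85). Fth1 was most like Gm26377 (0.83) and the ribosomal protein genes Rps27a (0.82) and Rps6 (0.80).

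Among the sparse members, Slc40a1 was most like Zfp433 (0.75), Plin2 (0.75), which coats lipid droplets, and Tmem216 (0.74), and Tfrc was most like Ralgapa2 (0.84), Sntb1 (0.83) and Acss1 (0.79). Heph was most like C1galt1 (0.69), Dact1 (0.69) and Hspa12b (0.67). Hp was most like Rpl30 (0.52), Mt1 (0.52), a metallothionein, and Cnmd (0.51). The sums share plates and depths, and for Heph, Hp and Tfrc a few cells set each sum.

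Other genes of iron and copper handling were read from 2 lists, 38 genes of iron and 14 of copper. All but 1 of the iron genes were in the table. In fibroblasts against mural cells, 3 of 28 tested iron genes were past a Benjamini-Hochberg adjusted p of 0.05, all higher, where edgeR called 3.47% of all genes higher and 2.45% lower. At an unadjusted p under 0.05 there were 7 iron genes, all higher, where 17.02% of all tested genes passed. Steap3, the ferrireductase of the endosome, was higher at 354 ± 77.1 CPM against 16.2 ± 9.04 (SD, n = 4 strains) and was fitted at 4.48 on the log2 scale with an SE of 0.48. Steap3 and Steap4 thus lay in opposite directions. Lrp1, an endocytic receptor that takes up haem bound to hemopexin, was higher at 757 ± 148.6 CPM against 239.6 ± 51.7 (fitted 1.64, SE 0.26). The third was Hephl1, a ferroxidase related to Heph and Cp, at 0.442 to 0.867 CPM against 0 to 0.0486, which passed the filter through its fibroblast counts alone, so no fold is given. It was past the threshold in 3 of 10 alternatives, where Steap3 and Lrp1 were in 10 of 10, so 2 calls remain without it. Of 13 copper genes edgeR called 0, with 1 higher and 1 lower at an unadjusted p under 0.05, beside the same 17.02% of all genes. DESeq2, which called 13.2% of all genes, called 5 of the 2 lists, Steap3 and Lrp1 with Bmp6, Hmox1 and Mt2, the last 3 named after their values were seen.

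The clusters were made from these same counts and the lists were chosen with earlier results known, so these calls are counts to set beside the shares over all genes and no independent test. Over the list, the median fitted log2 fold change of the iron genes was 0.62 and that of the copper genes 0.22, where the median over all tested genes was -0.02. In the other 3 comparisons edgeR called 0 genes of either list. Of all tested genes it called 0.561% higher and 0.773% lower in cluster 1 against clusters 2 to 5, 0% higher and 0.0330% lower in cluster 6 against clusters 7 and 8, and 0.0843% higher and 0.110% lower in cluster 8 against cluster 7. The medians of the iron and copper genes were -0.01 and -0.06 in cluster 1 against clusters 2 to 5 (all tested genes -0.03), -0.79 and -0.24 in cluster 6 against clusters 7 and 8 (all -0.32), and 0.03 and -0.79 in cluster 8 against cluster 7 (all 0.18). At an unadjusted p under 0.05 it counted 4 of 27 iron genes and 1 of 13 copper genes lower in cluster 1 (8.87% of all tested genes), 1 of 24 iron genes lower in cluster 6 (5.74%), and 1 of 24 iron genes higher and 1 lower in cluster 8 against cluster 7 (6.88%). DESeq2 called 3, 0 and 1 genes of the 2 lists in these 3 comparisons, beside 5.30%, 2.99% and 3.44% of all genes. They were Bmp6, Flvcr1 and Mt1, all lower in cluster 1, and Cd163 for cluster 8 against cluster 7, named after their values were seen. In cluster 1 Bmp6 held 0 to 2.74 CPM against 14.5 to 32.8, and Flvcr1 held 0 to 1.23 against 0.475 to 10.98. Both lay near the floor on the side of cluster 1. Each of these genes was past the threshold in 1 or 2 of its alternatives. Cd163 is also 1 of the 8 macrophage markers. They summed to 29.1 to 188.9 CPM in cluster 7 and to 0 to 39.7 in cluster 8. Their part in the call was not tested.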

How the data were processed

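Single cells of mouse hearts were sequenced after Smart-seq2. According to the study's methods, the authors demultiplexed the reads with bcl2fastq, trimmed them with Trim Galore, mapped them with TopHat2 to GRCm38 (mm10) and assigned them to genes with featureCounts (Subread). A step named as removal of doublets with samtools may mean duplicate reads, which was not stated. Cells of low quality, those lacking both PDGF receptor transcripts and those that looked endothelial or immune had been removed by the authors. The strand setting and annotation release are not given in the sources used here. The deposited values were raw counts per gene, with 92 ERCC spike-ins (1.82% of counts).

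Counts were summed over the cells of a cluster (or side of a comparison) and strain, leaving spike-ins out of the totals, and sums of at least 3 cells were used. The labels name no animal, so the strain was the replicate. Sums held 810367 to 165964970 counts, and a level of 0 was given the upper limit that 3 counts allow, which covers counting error only. Within-strain differences were log2 of CPM + 1. Sums were fitted with edgeR 4.0.16 in R 4.3.3 (quasi-likelihood test, TMM, filterByExpr with a minimum count of 10, two-sided), without a term for strain, with Benjamini-Hochberg adjustment over all tested genes and a threshold of 0.05. DESeq2 1.42.0 was an alternative, with other scalings, no filter, a term for strain, and strains left out in turn. The code was tested on simulated data.

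Cells were thinned to 50000 counts for shares of cells. Of the 46517 genes, 46005 were matched by identifier to GENCODE M21. Python 3.11.15, numpy 2.4.6, pandas 2.3.3, scipy 1.17.1 and matplotlib 3.10.9 were used.

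The 10 genes and the lists of iron, copper and marker genes were chosen with earlier results of these data known. All 10 are named throughout. By rule, the 3 genes most like each of them were named, and from the iron and copper lists those past the edgeR threshold. Genes that DESeq2 alone called were named after their values were seen. One of the genes most like Steap4 is not reported here.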

Additional observations from a re-analysis of the deposited data

Results flagged for a closer look

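Among 31 levels with all 4 strains, 2 had a strain apart from the rest by Dixon's criterion at the 95% level. Chance flags about 1 in 20 such groups. The sums differ in their number of cells, and the genes were chosen on these values. The criterion thus only points out values, and nothing is read from the 2 flags. Cp in cluster 2 stood at 472 CPM in the 8 cells of Cspg4dsRED, against 617 to 626 CPM in the other strains. Tfrc in cluster 8 stood at 41.1 CPM in Cspg4dsRED, against 0 to 0.448 CPM in the others. Only 3 cells of cluster 8 had 10 counts or more of Tfrc, and the same sum held 446 CPM of erythroid markers.

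Strains had log2 differences of both signs in 17 of 40 pairs of a gene and a comparison, and in 5 of these they were 2-fold or more apart in both directions. Those 5 are given here. These differences between strains were not tested, and each rests on few cells or on a sparse gene. For Slc40a1 in fibroblasts against mural cells, the log2 difference was 1.04 in Cspg4dsRED and -1.31 in PdgfrbGFP. In cluster 1 against clusters 2 to 5, Slc40a1 was at 2.76 in PdgfrbGFP and -4.53 in the 3 cells of Cspg4dsRED. In cells with 200000 to 400000 counts it was at -1.57 in PdgfrbGFP, -3.42 in Acta2GFP and -3.53 in C57BL6, all of 1 sign. In the same comparison Heph was at 2.42 in Acta2GFP and -3.20 in Cspg4dsRED, and at -2.75 in C57BL6. No count of either gene was found in those 3 Cspg4dsRED cells, which allows up to 3.70 CPM, so their values depend on the 1 CPM added. In cluster 6 against clusters 7 and 8, Heph was at 6.74 in C57BL6 and -2.86 in Acta2GFP, whose 3 cells had no count, and Trf was at 4.64 in Acta2GFP and -3.58 in C57BL6. In cluster 6, C57BL6 and Acta2GFP had 3 cells each.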

How the results depend on the processing

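Members called 2-fold apart had the same sign under every alternative run, in 80 of 80 fitted values and 36 of 36 within-strain means. A call needs the same direction in every strain, so these signs were largely set by the call and are no test of it. Among the members not called, 23 fitted values and 8 within-strain means changed sign. The share of tested genes called by edgeR depended on the setting. Between fibroblasts and mural cells it was 5.93%, with 3.03% under spike-in scaling, 13.2% by DESeq2 and 2.66% to 3.91% with a strain left out. For cluster 1 against clusters 2 to 5 it was 1.33%, with 0.401% under spike-in scaling, 5.30% by DESeq2 and 0.201% to 0.748% with a strain left out. For cluster 6 against clusters 7 and 8 it was 0.0330%, with 0%, 2.99% and 0% to 0.495% in the same order and 0.418% without the filter. For cluster 8 against cluster 7 it was 0.194%, with 0%, 3.44% and 0% to 0.987% in the same order, 0.855% without the filter and 0.379% with DESeq2 size factors. The cause was not tested. Of the iron and copper lists, DESeq2 called 5, 3 and 1 genes in the first, second and last comparison, where edgeR called 3, 0 and 0. With spike-in scaling 5 members in place of 3 were 2-fold apart between fibroblasts and mural cells, where the share of all tested genes went from 5.06% to 10.1% higher and from 2.75% to 1.57% lower, and 3 in place of 2 in cluster 6 against clusters 7 and 8, with Fth1 added. In cells of 200000 to 400000 counts, chosen after seeing the data, Steap4 in cluster 1 was no longer 2-fold lower in every strain, while Cp and Slc40a1 were, and 10.2% of all tested genes in place of 4.39%.

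With the strain as a replicate block, 4.81%, 0.742%, 0.883% and 0.691% of genes were called in the 4 comparisons, and of the lists Mt1 was gained in cluster 1 and Hephl1 lost between fibroblasts and mural cells. Deviations of the 2 sums of a strain correlated at 0.02 to 0.19, all positive and not all above 0.1, and the main fit was kept without a term for strain. It thus leaves out the plate and sort that the 2 sums share, and its shares of called genes carry that limit. Thinning moved 42 of 80 shares of cells by more than their interval. The few cells with Heph, Hp, Tfrc or Slc40a1 limit what can be said of their levels.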
